A study of Mus musculus with 8 samples.

Results

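The mitochondrially encoded genes of the mouse are the 37 genes of the small circular DNA inside the mitochondrion, and they were taken as every gene whose name begins with mt- among the 55450 genes of the count table. They comprised 13 messenger RNAs (mRNAs), 2 ribosomal RNAs (rRNAs) and 22 transfer RNAs (tRNAs), and they were the 37 genes that GENCODE M21 places on chromosome M of mm10. The counts are those of total RNA from 8 mouse neutrophil libraries, each from cells sorted as CD71+ or CD71-, CD71 being the receptor for iron-loaded transferrin. Culture libraries came from neutrophils generated in vitro from naive bone marrow, with 2 libraries labelled CD71- and 2 labelled CD71+. Tumour libraries came from brain tumours of SB28, a mouse glioma line, again with 2 labelled CD71- and 2 labelled CD71+. Strain, age, number of animals and pooling are not part of the labels. Nothing in them says that replicates were different animals or cultures, and p-values therefore reflect the spread between these libraries alone, part of which may be technical.

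Mitochondrial DNA is copied into long transcripts from both of its strands. The rRNAs, nearly all mRNAs and most tRNAs lie on one strand, while mt-Nd6 and the remaining tRNAs lie on the other. The tRNAs sit between the rRNAs and mRNAs, and their excision frees the neighbouring RNAs. The mRNAs encode subunits of respiratory complexes I, III, IV and V, and the rRNAs and tRNAs serve the ribosomes that translate them inside the organelle. Mature neutrophils are known for relying on glycolysis and for holding few mitochondria compared with most blood cells.

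The depth of the libraries lay between 9598959 and 22615813 counts. Where a gene shows 0 counts, up to 3 counts cannot be told from none, which equals 0.0915 to 0.419 CPM. CPM is the count relative to the size of its library, with sizes scaled by TMM, a method that centres most genes on no change. The neutrophil genes S100a8, S100a9 and Csf3r were present in all 8 libraries, at no less than 272.4 CPM. Summed over 10 genes of mature neutrophils, the level was 3332.7 and 4328.4 CPM in culture CD71+, 7887.7 and 8286.1 CPM in culture CD71-, 8416.1 and 8499.1 CPM in tumour CD71+ and 15979.6 and 18279.9 CPM in tumour CD71-. Ly6g, 1 of the 10, ran the other way from their sum, at 78.2 and 60.2 CPM in culture CD71- and 9.355 and 14.13 CPM in tumour CD71-. It stood at 23.1 and 16.3 CPM in culture CD71+ and 6.06 and 9.04 CPM in tumour CD71+. Against culture, 6 of the 10 were higher and 1 lower in tumour CD71-, where 30.3% of all genes were higher and 36.8% lower. In CD71+ against CD71- libraries, 6 of these 10 genes were lower in culture and 6 in the tumour, and none was higher. Of all genes tested, 8.36% were lower and 7.88% higher in CD71+ in culture, and 17.3% lower and 26.2% higher in the tumour. Of 12 macrophage and monocyte genes, 9 were higher in CD71+ in culture and 11 in the tumour, where their summed level went from 833.7 and 787.2 CPM to 3595.3 and 3913.6 CPM. All 9 microglial genes were higher in tumour CD71+, with summed levels of 164.6 and 186.4 CPM in CD71- and 1240.4 and 1733.8 CPM in CD71+. Erythroid genes summed to at most 2.79 CPM in a library. The part of these other cell markers in the results on mitochondrial RNA was not tested, and in such bulk samples fewer cells of a type and less RNA per cell cannot be told apart.

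Culture CD71- replicate 2 stood apart from its partner. Gm26917 and Gm42418, nuclear rows known for collecting reads of cytosolic rRNA, took 2.84% of its counts and 0.209% of those of replicate 1 (these rows were chosen after their values were seen). Across the other 6 libraries the same rows took 0.0270% to 0.920%. Lars2, another row of this kind and also a gene of a mitochondrial tRNA synthetase, stood at 737.2 CPM in culture CD71- replicate 2 and at 48.3 CPM in replicate 1. The summed level of the 22 mitochondrial tRNA synthetases was 1090.7 CPM in culture CD71- replicate 2 and 369.3 CPM in replicate 1. Counts of members that passed are given with and without culture CD71- replicate 2.

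Part of the mitochondrial genome has a nearly identical copy in a nuclear chromosome, and the sequences are shown first. Whether this copy bears on the counts of the genes it covers was not tested. A run of 7 annotated pseudogenes on chromosome 1 of mm10, from 24611535 to 24616197 on the minus strand, has matches on chromosome M whose outer ends lie at 6390 and 11042. In all, 6 consecutive mRNAs lie wholly between these ends, namely mt-Co2, mt-Atp8, mt-Atp6, mt-Co3, mt-Nd3 and mt-Nd4l, together with 5 tRNAs, and mt-Co1 and mt-Nd4 lie partly inside it. The first 60 bases of mt-Nd3 are set beside its copy, because this gene holds the one difference found along its 345 aligned bases. That difference is T3C, counted from 1 at the first base of mt-Nd3, and it is the capital letter in both lines.
mt-Nd3, chrM:9459-9518, plus strand: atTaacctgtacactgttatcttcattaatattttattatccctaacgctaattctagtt
Gm28438, chr1:24613060-24613119, minus strand: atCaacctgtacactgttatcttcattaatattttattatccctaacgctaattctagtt

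The first 60 bases of mt-Co2, a copper-binding subunit of complex IV, show the more common case of no difference at all.
mt-Co2, chrM:7013-7072, plus strand: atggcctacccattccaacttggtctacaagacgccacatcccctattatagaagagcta
Gm28661, chr1:24615506-24615565, minus strand: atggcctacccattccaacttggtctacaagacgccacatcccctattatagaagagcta

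The end of mt-Co1, the catalytic subunit of complex IV, lies in the copied stretch, and its last 60 bases are the same in both places. Over the 483 aligned bases of this end there was 1 difference, A1066T.
mt-Co1, chrM:6813-6872, plus strand: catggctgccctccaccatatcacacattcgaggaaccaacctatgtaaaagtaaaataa
Gm29216, chr1:24615706-24615765, minus strand: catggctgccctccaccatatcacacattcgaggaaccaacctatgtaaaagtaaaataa

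The beginning of mt-Co1 lies outside that stretch. A less similar annotated copy of the whole gene lies on chromosome 2, and differs within the first 60 bases by C54A and A60G, given in capitals.
mt-Co1, chrM:5328-5387, plus strand: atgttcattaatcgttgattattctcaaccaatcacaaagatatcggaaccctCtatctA
Gm13340, chr2:22589588-22589647, minus strand: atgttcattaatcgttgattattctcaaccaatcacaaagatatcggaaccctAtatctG

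All sequences are from GENCODE M21 transcripts on mm10. Of the 50-base windows of each gene, the share found letter for letter in a nuclear transcript was 100% for mt-Co2, 99.9% for mt-Co3, 99.5% for mt-Atp6, 98.8% for mt-Nd4l and 98.0% for mt-Nd3. It was 62.2% for mt-Nd4 and 51.1% for mt-Co1. For mt-Nd2, mt-Nd5 and mt-Rnr2 it was 8.19%, 7.61% and 1.04%, and for mt-Nd1, mt-Nd6, mt-Cytb, mt-Rnr1 and mt-Atp8 it was 0%. The value for mt-Atp8 counts annotated transcripts only. Its last 43 bases, shared with mt-Atp6, lie within the match of Gm10925, but are fewer than a 50-base window. No annotated row of the copied stretch covers the rest of this gene, and that span was not compared. The sources used here do not give how the authors' counting treated reads that map to both places.

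The 6 mRNAs inside the copied stretch were listed far below their neighbours in all 8 libraries. Summed, they had 1678 and 1802 counts in culture CD71-, 543 and 633 in culture CD71+, 96 and 43 in tumour CD71-, and 138 and 127 in tumour CD71+. That was 0.131% to 0.286% of the counts of the 13 mRNAs. Levels of different genes are compared here per kilobase of gene. The highest of the 6 was below the lowest of the other 7 mRNAs in every library, by 7.10-fold (tumour CD71- replicate 1) to 35.6-fold (culture CD71+ replicate 2). In culture CD71- replicate 1, for example, mt-Co2 led the 6 with 49.3 CPM per kilobase, and mt-Nd6 was the lowest of the other 7 with 677.5 CPM per kilobase.

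The largest count of any of the 6 in any library was 569, for mt-Co2 in culture CD71- replicate 1. mt-Co3, the third core subunit of complex IV, had 391 and 489 counts in culture CD71-, 212 and 189 in culture CD71+, 28 and 12 in tumour CD71- and 60 and 49 in tumour CD71+. mt-Atp6, a membrane subunit of the ATP synthase, had 307 and 383, 87 and 111, 6 and 3, and 18 and 19 counts in the same order. mt-Nd3 and mt-Nd4l, small membrane subunits of complex I, had at most 227 and 158 counts. The 7 pseudogene rows on chromosome 1 had 3163 and 4825 counts in culture CD71-, 1336 and 1785 in culture CD71+, 158 and 83 in tumour CD71-, and 332 and 373 in tumour CD71+. These 7 rows include copies of parts of mt-Co1 and mt-Nd4, which are not among the 6. Summed, the 7 rows had more counts than the 6 mRNAs in every library, but gene by gene this did not hold. In culture CD71- replicate 1, mt-Co2, mt-Nd3 and mt-Nd4l had more counts than their copies, and mt-Atp6 and mt-Co3 had fewer. The copies too held few counts beside mt-Co1, which had between 12437 and 522360. The counts of these 6 mRNAs are given below as listed. How they relate to the RNA in the cells, and why they are low, was not tested.

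mt-Atp8, another subunit of the ATP synthase, shows another limit of counting on this compact genome, since its last 43 bases (in capitals) are also the first bases of mt-Atp6. A read in the shared part could belong to either gene.
mt-Atp8, chrM:7766-7969, plus strand: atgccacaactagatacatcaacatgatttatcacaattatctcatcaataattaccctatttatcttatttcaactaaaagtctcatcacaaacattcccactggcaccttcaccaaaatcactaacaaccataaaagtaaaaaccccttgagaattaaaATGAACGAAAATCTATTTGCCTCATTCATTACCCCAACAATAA

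It had 35 and 37 counts in culture CD71-, 5 and 8 in culture CD71+, 0 in 3 tumour libraries and 1 in tumour CD71+ replicate 2. mt-Nd4l and mt-Nd4 share 7 bases, and mt-Nd5 and mt-Nd6 share 14 bases on opposite strands. The library kit keeps strand, but the sources used here do not give whether the counting used it, so reads in that overlap cannot be assigned with certainty.

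**Figure D1:**
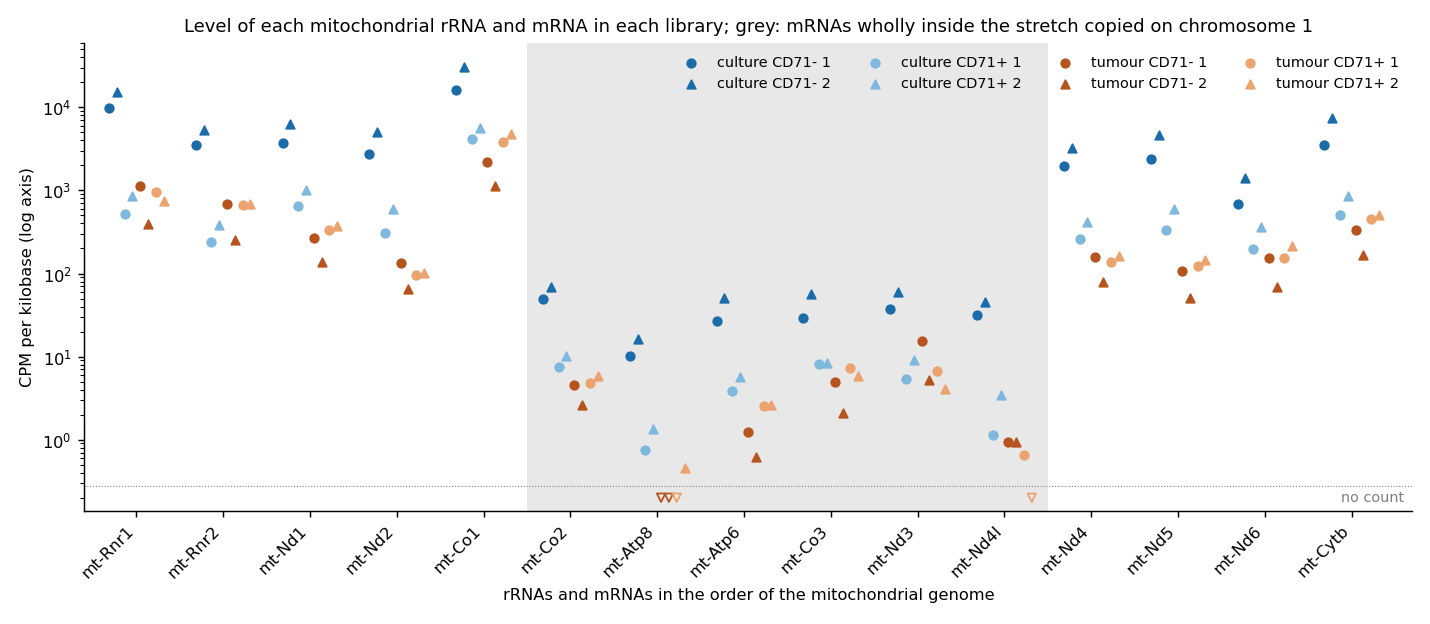
Level of the 2 rRNAs and 13 mRNAs in each library, in CPM per kilobase on a log axis, in the order of the mitochondrial genome. Colours stand for the 4 groups, circles for replicate 1 and triangles for replicate 2, and open triangles on the lower line mark 0 counts. The 6 mRNAs on the grey ground lie wholly inside the stretch copied on chromosome 1 and sit below the others in every library.

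**Figure D2:**
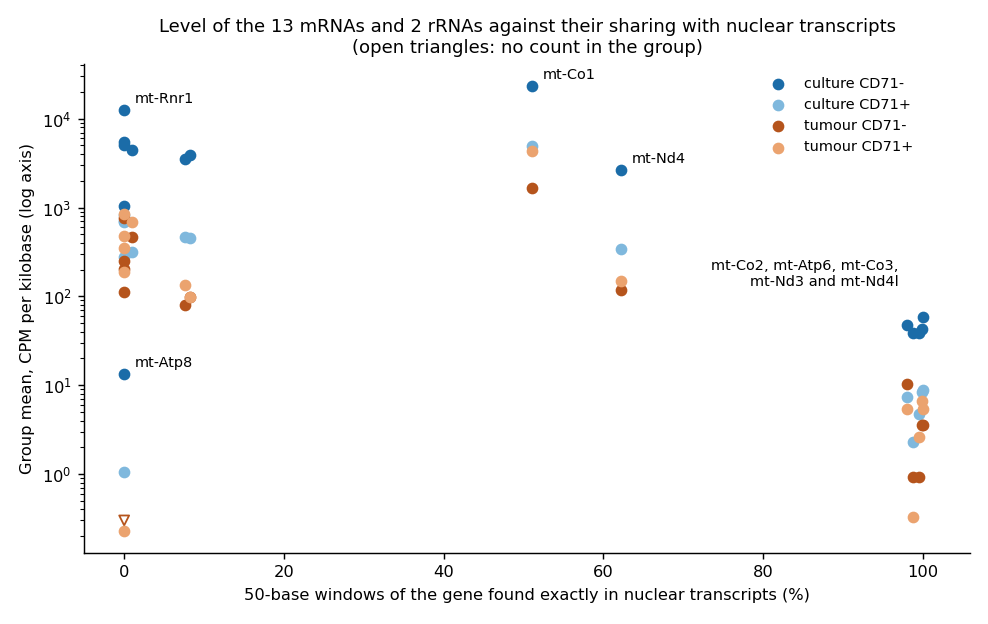
Group mean level in CPM per kilobase (log axis) of the 13 mRNAs and 2 rRNAs against the percent of their 50-base windows found exactly in nuclear transcripts. The 5 mRNAs at 98.0% or more are low in all 4 groups, mt-Co1 and mt-Nd4 at 51.1% and 62.2% are not, and mt-Atp8 at 0% is as low as the 5.

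Together the members took 7.09% and 12% of all counts in culture CD71-, 1.45% and 2.17% in culture CD71+, 0.829% and 1.04% in tumour CD71+, and 0.413% and 0.202% in tumour CD71-. These groups did not overlap. Wilson 95% intervals of these shares, which cover counting error only, were at most as wide as 11.98% to 12.02%, and so far narrower than the gaps between partners. By class, mRNAs held 68.2% to 90.9% of mitochondrial counts, rRNAs 8.87% to 31.7% and tRNAs 0.122% to 0.206%. The lowest mitochondrial share went with the highest level of nuclear-retained RNAs, a list led by Malat1 and Neat1. Its summed level was 74461.4 and 74620.3 CPM in tumour CD71-, 40542.2 and 39099.0 CPM in tumour CD71+, 50544.1 and 33712.3 CPM in culture CD71-, and 30478.1 and 35968.7 CPM in culture CD71+. Within culture the groups overlapped in this level, and no order between them was seen. The part of RNA quality or of lost cytoplasm in the mitochondrial levels was not tested.

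On chromosome M of mm10 the rRNA genes lie at 70 to 1024 (mt-Rnr1) and 1094 to 2675 (mt-Rnr2), mt-Co1 at 5328 to 6872, mt-Nd5 at 11742 to 13565 and mt-Cytb at 14145 to 15288 on the plus strand, and mt-Nd6 at 13552 to 14070 on the minus strand. mt-Co1 was the most abundant member per length in 8 of 8 libraries. Its level was 16128.9 and 30648 CPM per kilobase in culture CD71-, 4196.3 and 5595.1 in culture CD71+, 2197.3 and 1115.4 in tumour CD71-, and 3821.8 and 4839.7 in tumour CD71+. Culture CD71- lay above the other 3 groups, tumour CD71- lay below them, and the CD71+ libraries of both origins overlapped. Next in culture CD71- stood mt-Rnr1, the small-subunit rRNA, with 9918.8 and 15311.3 CPM per kilobase. It stood at 527.1 and 868.7 in culture CD71+, 1144.3 and 396.1 in tumour CD71-, and 970.6 and 736.8 in tumour CD71+, and these last 3 groups overlapped. mt-Rnr2, the large-subunit rRNA, had 3537.6 and 5363.7, 242.2 and 384.8, 684.6 and 250.2, and 673.4 and 689.8 CPM per kilobase in the same order of groups.

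Among the other well-counted mRNAs, mt-Cytb, the central subunit of complex III, averaged 5499.8 ± 2767.2 CPM per kilobase in culture CD71- (SD, n = 2), 688.0 ± 252.2 in culture CD71+, 250.2 ± 118.4 in tumour CD71- and 478.3 ± 42.6 in tumour CD71+. mt-Nd1, mt-Nd2, mt-Nd4 and mt-Nd5, the core membrane subunits of complex I, averaged 2627.8 to 4997.7 CPM per kilobase in culture CD71-, 340.2 to 827.8 in culture CD71+, 79.2 to 202.8 in tumour CD71- and 99.2 to 351.5 in tumour CD71+. mt-Nd6, the complex I subunit on the opposite strand, was at 677.5 and 1415.4 CPM per kilobase in culture CD71-, 195.3 and 365.4 in culture CD71+, 155.8 and 69.4 in tumour CD71-, and 155.5 and 216.7 in tumour CD71+. In both culture groups mt-Nd6 was the lowest of the 7 mRNAs outside the copied stretch, while in the tumour mt-Nd5 or mt-Nd2 was lower. Between partners the spread was wide: in culture CD71- replicate 2 exceeded replicate 1 for all 13 mRNAs, and in tumour CD71- replicate 1 exceeded replicate 2 for all 7 outside the copied stretch.

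Few tRNA reads were counted. The 22 tRNAs had 6026 counts in all libraries together, and 9 of them, those with enough counts to be tested, held 98.5%. mt-Tf and mt-Tn had 0 counts in all 8 libraries, and no other untested tRNA had more than 13 counts in a library. Mature tRNAs are short, folded and modified, and libraries of this kind are known to capture them poorly, so these counts are no measure of mature tRNA. mt-Tw, the tRNA for tryptophan, held 52.5% to 65.6% of the tRNA counts of each library. It lies between mt-Nd2, with which it shares its first 2 bases (in capitals), and the tRNAs of the opposite strand.
mt-Tw, chrM:4950-5016, plus strand: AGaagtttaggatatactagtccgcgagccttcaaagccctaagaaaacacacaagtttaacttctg

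mt-Tw had 1050 and 1561 counts in culture CD71-, 429 and 490 in culture CD71+, 39 and 18 in tumour CD71-, and 62 and 84 in tumour CD71+. mt-Tm, the tRNA for methionine just before mt-Nd2, followed with 217 and 227, 30 and 54, 5 and 1, and 3 and 1 counts. mt-Tq, the tRNA for glutamine on the opposite strand, had 123 and 184, 68 and 103, 9 and 4, and 11 and 25. mt-Ti, mt-Tl1, mt-Tt, mt-Ta, mt-Tp and mt-Te had at most 109, 65, 67, 85, 46 and 12 counts in a library.

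Within culture, the CD71+ fraction was compared with the CD71- fraction. Mitochondrial RNA of all 3 classes was lower in CD71+. Of the 24 members tested, 20 fell (edgeR's quasi-likelihood test, Benjamini-Hochberg adjusted p under 0.05 over 15975 genes), namely 12 of 13 mRNAs, 2 of 2 rRNAs and 6 of 9 tRNAs, and 0 rose. Without adjustment all 24 were lower at p under 0.05, and DESeq2 called 20. Of all genes tested, 8.36% fell and 7.88% rose. The median log2 fold change was -2.75 over the 24 members and 0.03 over all genes. The groups did not overlap for any of the 24, and of all genes tested 27.5% had CD71+ values below CD71- values without overlap.

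Among the well-counted members the rRNAs had the largest falls. mt-Rnr1 had 159958 and 161308 counts in culture CD71- and 16509 and 24008 in the deeper CD71+ libraries, which was 18.1-fold lower (log2 fold change -4.18, SE 0.54, adjusted p = 0.00188 by edgeR). mt-Rnr2 was 14.2-fold lower (-3.83, SE 0.48, adjusted p = 0.00135). Of the mRNAs that passed, mt-Co1 had the smallest log2 fold change, -2.26 (SE 0.37, adjusted p = 0.00235). mt-Nd2 stood at -3.11 (SE 0.46, adjusted p = 0.00286), and mt-Cytb (-2.999), mt-Nd4 (-2.95), mt-Nd5 (-2.93) and mt-Nd1 (-2.59) passed too. Inside the copied stretch the log2 fold changes of the 6 mRNAs ran from -4.05 (mt-Nd4l) to -2.37 (mt-Co3), and all 6 passed. Their median was -2.88, close to the -2.93 of the other 7.

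mt-Nd6 had a log2 fold change of -1.90 (SE 0.53) and did not pass (adjusted p = 0.0563). Among the tRNAs, mt-Tw (-2.76, SE 0.39, adjusted p = 0.00117) and mt-Tm (-3.58) fell, while mt-Ta (-1.72), mt-Te (-2.37) and mt-Tt (-1.68) did not pass. The tRNA median was -2.37, against -2.93 for the mRNAs and -4.00 for the rRNAs. Without culture CD71- replicate 2, the library with many reads on rRNA-linked rows, 16 members fell.

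**Figure D3:**
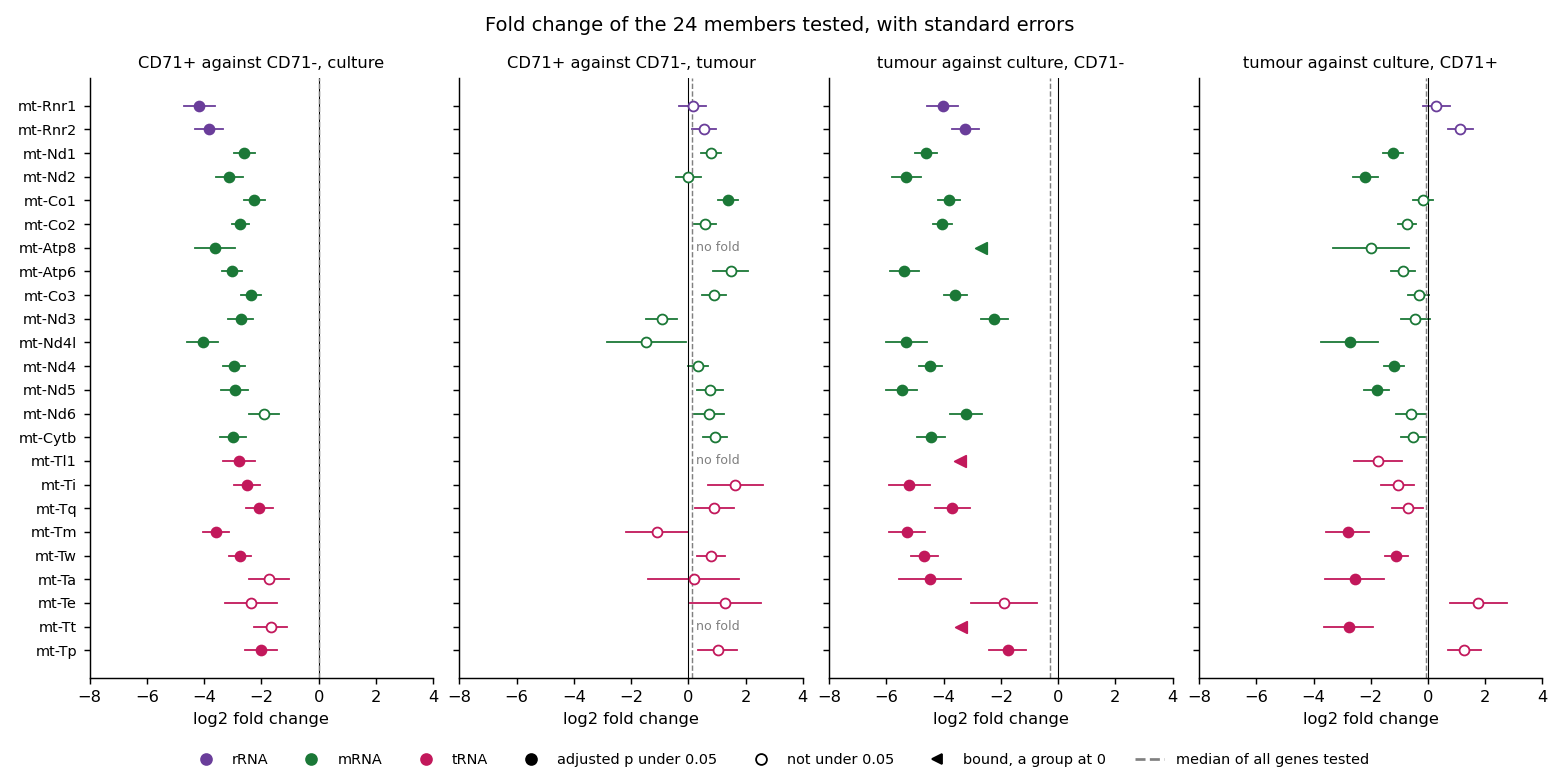
Log2 fold change of each of the 24 tested members in 4 comparisons, with standard errors (lines). Filled circles have an adjusted p under 0.05, triangles mark bounds where a group had 0 counts, and the dashed line is the median of all genes tested. In culture the 24 members lie left of the dashed line, with mt-Rnr1 farthest to the left, and in the tumour mt-Co1 is the one filled circle.

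Inside the tumour the same comparison gave a different picture. mt-Co1 rose in CD71+, from 2197.3 and 1115.4 to 3821.8 and 4839.7 CPM per kilobase (log2 fold change 1.39, SE 0.36, adjusted p = 0.0101 by edgeR). It was the only one of the 24 members that passed, where 26.2% of all genes rose and 17.3% fell. Without adjustment 3 members were higher at p under 0.05 and 0 lower, and DESeq2 also called 1. This rise did not pass without tumour CD71- replicate 2 (log2 fold change 0.87, adjusted p = 0.124), when 0 members passed, and over all alternatives its adjusted p ran from 2.39e-08 to 0.124. With total counts as the scale 10 members passed, with the mature neutrophil genes as the scale 10, without the filter on low counts 5 and with the tumour libraries alone 3, each time all higher. The number was 3 without tumour CD71- replicate 1 and 2 without culture CD71- replicate 1 or without culture CD71- replicate 2.

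mt-Rnr1 and mt-Rnr2 did not differ detectably, with log2 fold changes of 0.15 (SE 0.48, adjusted p = 0.83) and 0.54 (SE 0.43, adjusted p = 0.341), and their groups overlapped. With DESeq2 size factors the value of mt-Rnr1 was -0.06. mt-Nd2 was at 133.3 and 65.0 CPM per kilobase in CD71- and 95.6 and 102.8 in CD71+ (log2 fold change 0.00, SE 0.43). mt-Nd1 (0.79, adjusted p = 0.0896) and mt-Cytb (0.94, adjusted p = 0.112) were higher without passing, and their groups did not overlap. Of the 21 members with counts in both groups, 18 had positive values and 3, mt-Nd3, mt-Nd4l and mt-Tm, had negative ones, with a median of 0.75 against 0.13 for all genes. With DESeq2 size factors mt-Rnr1, mt-Nd2 and mt-Ta turned negative as well. Of the 9 tRNAs 0 passed, also without adjustment and by DESeq2, and mt-Tl1 and mt-Tt, at 0 in CD71- and with at most 3 counts in CD71+, allow no fold.

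The test of the difference between the tumour and the culture effect of CD71 asked whether the members behaved differently in the 2 origins. Of the 24 members, 16 passed, all with a higher log2 fold change of CD71+ against CD71- in the tumour than in culture. Of all genes, 10.8% passed in that direction and 4.71% in the other. The log2 difference was 4.32 for mt-Rnr1 (SE 0.70, adjusted p = 0.00671 by edgeR), 4.37 for mt-Rnr2 and 3.64 for mt-Co1 (SE 0.51, adjusted p = 0.00174). mt-Nd6 (2.63, adjusted p = 0.0613) and mt-Nd3 (1.79, adjusted p = 0.0943) did not pass. Without culture CD71- replicate 2, 10 members passed. The culture fall and the tumour against culture fall in CD71-, given next, share the culture CD71- libraries and are not independent.

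Tumour against culture, within each fraction, compares cells that differ in organ, in growth in vitro or in the body and in handling, which cannot be told apart. In CD71- the tumour libraries were lower for 23 of 24 members (13 of 13 mRNAs, 2 of 2 rRNAs and 8 of 9 tRNAs), where 36.8% of all genes were lower and 30.3% higher. The median log2 fold change was -4.47, or -4.04 with members at 0 in the tumour taken at their bound, against -0.28 over all genes. mt-Nd5 had 73121 and 93976 counts in culture and 1414 and 660 in the tumour, which was 44.5-fold lower (log2 fold change -5.475, SE 0.53, adjusted p = 2.65e-05 by edgeR). mt-Nd2 (-5.30), mt-Nd1 (-4.62), mt-Nd4 (-4.465) and mt-Cytb (-4.46) followed. mt-Co1 was 14.1-fold lower (-3.82) and mt-Nd6 was 9.29-fold lower (-3.22, SE 0.57, adjusted p = 0.00205).

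Both rRNAs were nearer to 0 than the mRNA median of -4.465 (values set side by side, the difference not tested). They stood at -4.03 for mt-Rnr1 (SE 0.54, adjusted p = 0.000236) and -3.25 for mt-Rnr2 (SE 0.47, adjusted p = 0.000315). mt-Tw fell by 4.68 on the log2 scale, and mt-Tl1 and mt-Tt, at 0 in both tumour CD71- libraries, were at least 10.9-fold and 10.5-fold lower, computed against 3 counts per library. mt-Atp8 was at least 6.5-fold lower by the same rule. mt-Te, the tRNA for glutamate, had 12 and 10 counts in culture and 3 and 0 in the tumour and did not pass (adjusted p = 0.156). Without culture CD71- replicate 2, 22 members passed.

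In CD71+ the distance between tumour and culture was smaller and uneven. In total 9 members were lower in the tumour (5 of 13 mRNAs, 0 of 2 rRNAs, 4 of 9 tRNAs) and 0 were higher (2 without adjustment, 0 by DESeq2), where 27.6% of all genes were lower and 30.3% higher. mt-Nd2 fell from 307.3 and 596.2 to 95.6 and 102.8 CPM per kilobase (log2 fold change -2.19, SE 0.45, adjusted p = 0.00297 by edgeR). The other complex I mRNAs mt-Nd5 (-1.80), mt-Nd1 (-1.24) and mt-Nd4 (-1.18) fell less far by value. mt-Nd4l, mt-Tm, mt-Ta and mt-Tt, which also passed, had at most 5 counts in a tumour CD71+ library. mt-Tw fell by 1.11 (adjusted p = 0.0372). mt-Co1 (-0.18, adjusted p = 0.686), mt-Cytb (-0.525, adjusted p = 0.322) and mt-Rnr1 (0.29, adjusted p = 0.627) did not pass. mt-Rnr2 was 1.12 higher on the log2 scale with groups that did not overlap, and did not pass either (SE 0.44, adjusted p = 0.0556).

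These CD71+ counts depend on single libraries: 2 members passed without culture CD71+ replicate 2, 4 without tumour CD71+ replicate 1 and 5 without tumour CD71+ replicate 2. With total counts as the scale 19 passed, and with the mature neutrophil genes 18. The direction of mt-Rnr1 in this comparison turned with the scale, to -0.40 with total counts and -0.92 with the mature neutrophil genes.

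Ratios between members of the same library do not depend on the scaling between libraries, and they separated the classes. They are given as descriptions, and no test of them was run. An exact permutation test of 2 libraries against 2 cannot give a p below 0.333. Per mRNA count there were 0.352 and 0.285 rRNA counts in culture CD71-, 0.0976 and 0.110 in culture CD71+, 0.465 and 0.329 in tumour CD71-, and 0.272 and 0.197 in tumour CD71+. The group means were 0.318 in culture CD71- and 0.104 in culture CD71+, and the 4 CD71+ libraries lay below the 4 CD71- libraries. Without mt-Co1 in the mRNA sum, an alternative added after seeing the data, the group means were 0.762, 0.332, 1.46 and 1.24 in the same order. Culture CD71+ then remained the lowest, but the tumour groups both lay above culture CD71-.

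The kit used for these libraries removes cytosolic and mitochondrial rRNA, so the rRNA counts are what was left over. Nuclear rows annotated as cytosolic rRNA held 0.00209% to 0.00418% of counts. Of these 354 rows, 275 had 0 counts in every library. Gm26917 and Gm42418, known for collecting reads of cytosolic rRNA, are not among them and took 0.0270% to 2.84%. The share of the annotated rows is therefore no measure of all cytosolic rRNA left. mt-Rnr1 and mt-Rnr2 held 1.84% and 2.66% in culture CD71-, 0.129% and 0.215% in culture CD71+, 0.131% and 0.04998% in tumour CD71-, and 0.177% and 0.171% in tumour CD71+. In culture CD71- the rows Gm26917 and Gm42418 had 28904 and 272542 counts, or 0.209% and 2.84%, beside mitochondrial rRNA sums of 254464 and 254915 counts. Their shares were 0.370% and 0.920% in culture CD71+, 0.0783% and 0.0270% in tumour CD71-, and 0.855% and 0.325% in tumour CD71+. Within each group, the replicate with the higher share of these rows also had the higher share of mitochondrial rRNA. Between groups this did not hold: culture CD71- replicate 1 lay below both tumour CD71+ libraries in these rows and above them in mitochondrial rRNA. How much of each rRNA the removal took in each library was not tested.

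The ratio of the rRNAs to each other differed by group as well, again without a test. There were 1.69 and 1.72 mt-Rnr1 counts per mt-Rnr2 count in culture CD71-, 1.31 and 1.36 in culture CD71+, 1.01 and 0.956 in tumour CD71-, and 0.870 and 0.645 in tumour CD71+. The 4 groups did not overlap. Per kilobase the same ratio averaged 2.83, 2.22, 1.63 and 1.26, so that mt-Rnr1 was above mt-Rnr2 per length in every library. Both rRNAs lie side by side, with mt-Tv between them and no spare base.

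Among the mRNAs, mt-Co1 took 58.1% and 58.4% of counts in culture CD71-, 71.3% and 66.0% in culture CD71+, 72.5% and 73.2% in tumour CD71-, and 80.5% and 81.9% in tumour CD71+. There were 5.76 and 5.56 mt-Co1 counts per mt-Nd5 count in culture CD71-, 10.8 and 7.94 in culture CD71+, 17.2 and 18.8 in tumour CD71-, and 26.6 and 28.3 in tumour CD71+, again without overlap. There were 0.936 and 1.001 mt-Cytb counts per mt-Nd5 count in culture CD71-, 0.969 and 0.910 in culture CD71+, 1.94 and 2.08 in tumour CD71-, and 2.31 and 2.20 in tumour CD71+. The origins did not overlap in this ratio, the culture fractions did, and the tumour fractions did not. mt-Nd2 per mt-Nd1 was 0.794 and 0.881 in culture CD71-, 0.514 and 0.642 in culture CD71+, 0.539 and 0.514 in tumour CD71-, and 0.314 and 0.299 in tumour CD71+.

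Members on the opposite strand were high in the tumour relative to mt-Nd5 and among the tRNAs. Per mt-Nd5 count there were 0.0812 and 0.0862 mt-Nd6 counts in culture CD71-, 0.169 and 0.174 in culture CD71+, 0.410 and 0.394 in tumour CD71-, and 0.364 and 0.426 in tumour CD71+. As a share of all mRNA counts mt-Nd6 held 0.820% and 0.906% in culture CD71-, 1.11% and 1.45% in culture CD71+, 1.73% and 1.53% in tumour CD71-, and 1.10% and 1.23% in tumour CD71+, so that by this share the CD71+ groups of both origins overlapped. The tRNAs of that strand, 8 of the 22, took 12.7% and 13.8% of tRNA counts in culture CD71-, 19.2% and 22.1% in culture CD71+, 35.6% and 32.1% in tumour CD71-, and 34.8% and 34.4% in tumour CD71+. mt-Nd6 per mt-Nd5 and the tRNA share both put culture CD71- lowest, culture CD71+ next and the tumour libraries highest, with the tumour fractions overlapping. The tumour tRNA shares rest on few counts, 9 of 28 in tumour CD71- replicate 2, with a Wilson 95% interval of 17.9% to 50.7% that reaches below the value of culture CD71+. Per 1000 mRNA counts there were 2.39 and 2.66 tRNA counts in culture CD71-, 2.27 and 2.29 in culture CD71+, 2.18 and 1.65 in tumour CD71-, and 1.55 and 1.59 in tumour CD71+. Without mt-Co1 in the mRNA sum, also added after seeing the data, the group means were 6.05, 7.33, 7.03 and 8.33 in that order, so culture CD71- went from highest to lowest.

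**Figure D4:**
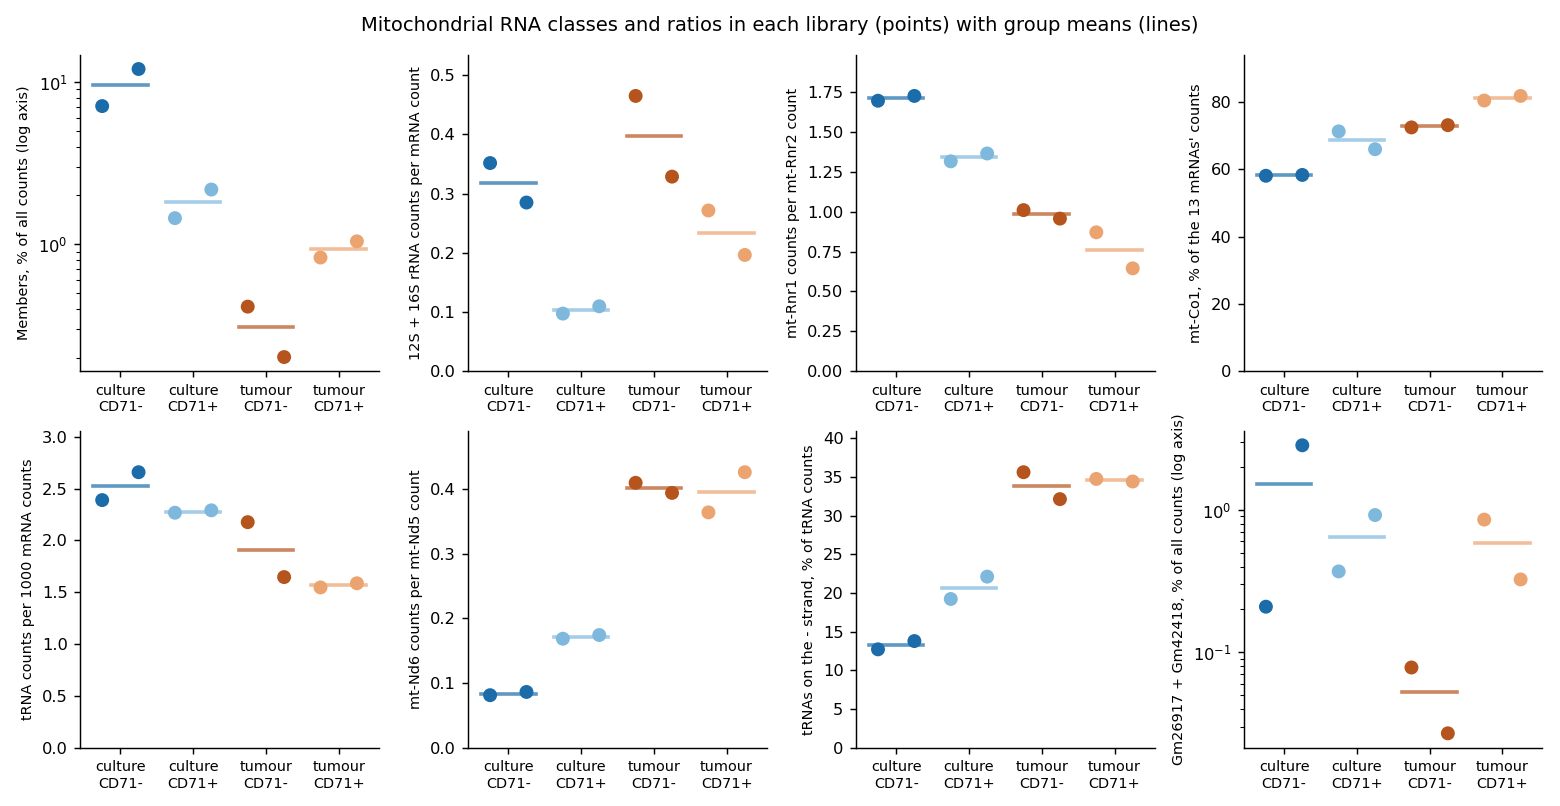
Shares and ratios of mitochondrial RNA in each library (points), with group means (lines), and in the last panel the share of all counts on the rRNA-linked rows Gm26917 and Gm42418. The first and last panels have log axes. Culture CD71- is highest in mitochondrial share, culture CD71+ is lowest in rRNA per mRNA, and mt-Rnr1 per mt-Rnr2 steps down over the 4 groups without overlap.

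The nuclear genes that make, process and partner these RNAs were read from lists written for the purpose, and are described by counts and medians. In culture, where 20 of 24 members fell, hardly any of them changed. Of 36 nuclear subunits of complex I, 0 passed (edgeR, median log2 fold change 0.02), and 0 of 12 passed for complex IV (median -0.09). DESeq2 called 0 of either list, and without adjustment 1 of the 36 and 0 of the 12 were at p under 0.05. Likewise 0 of 13 genes of RNA processing and 0 of 8 of mitochondrial transcription passed (2 and 0 without adjustment, 0 and 0 by DESeq2). Of 77 mitochondrial ribosomal proteins, 2 rose and 1 fell (median 0.24), among them Mrps2 (0.97) and Mrps15 (-0.78). Of these 3, 0 passed without culture CD71- replicate 1 or without culture CD71+ replicate 1, and 1 without culture CD71+ replicate 2. This reading depends on the scale: with mature neutrophil genes as the scale, which moved the median of all genes up by 1.10, 30 of the 36 complex I genes and 68 of the 77 ribosomal proteins passed. The members, by contrast, were still lower by that scale, and 14 passed.

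A few of the listed genes did change in culture. Optn and Ulk1, which act in the removal of damaged mitochondria, fell in CD71+. They were the 2 of 12 mitophagy genes that passed (5 without adjustment, 3 by DESeq2), where 8.36% of all genes fell. Of 9 biogenesis regulators 0 passed (3 without adjustment, 2 by DESeq2). Optn went from 24.8 and 19.5 to 8.05 and 7.53 CPM (log2 fold change -1.51, SE 0.18, adjusted p = 0.00011 by edgeR), and the value of Ulk1 was -1.09 (SE 0.19, adjusted p = 0.00151). Polg, the polymerase that copies mitochondrial DNA (-0.83, adjusted p = 0.0105), and Tk2, which makes precursors for it (-0.62, adjusted p = 0.0486), fell as well. They are 2 of 14 genes of mitochondrial DNA maintenance, of which 1 rose and 2 fell, and 0 of the 14 passed without culture CD71- replicate 2 or without culture CD71+ replicate 1, and 1 without culture CD71+ replicate 2. Rexo2, a nuclease that clears short RNA in mitochondria, rose by 0.92 (adjusted p = 0.0333). It was the 1 of 6 RNA decay genes that passed, and 0 of the 6 passed with the culture libraries alone or without culture CD71- replicate 1, culture CD71+ replicate 1 or culture CD71+ replicate 2. In this comparison edgeR called 0 of 17 genes of tRNA modification, 0 of 17 of rRNA modification, 0 of 13 translation factors and 0 of 22 tRNA synthetases. Lars2, a synthetase gene, is also a row known for collecting rRNA reads. Without adjustment 0, 0, 1 and 5 of them were at p under 0.05, and DESeq2 called 0, 0, 0 and 1.

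In the tumour comparison many nuclear partners rose in CD71+ where 1 member did. Of 36 complex I genes, 18 rose and 1 fell (median 0.97), and of 77 mitochondrial ribosomal proteins 36 rose and 3 fell (median 1.04), where 26.2% of all genes rose and 17.3% fell and their median was 0.13. With total counts and with mature neutrophil genes as the scale, 31 and 34 of the complex I genes passed, and 58 and 69 of the ribosomal proteins. DESeq2 called fewer than edgeR, 16 against 19 complex I genes and 29 against 39 ribosomal proteins. Lrpprc, which binds and stabilises mitochondrial mRNAs, rose from 4.19 and 5.13 to 20.87 and 27.95 CPM (log2 fold change 2.39, SE 0.25, adjusted p = 1.38e-05 by edgeR). It belongs to the 8 of 13 processing genes that rose, with Elac2, the enzyme that cuts the tail from tRNA precursors (1.96). Ndufa9 of complex I rose by 2.22 and Mrpl3 by 2.67. Without tumour CD71- replicate 1 the complex I genes that passed numbered 8, and without replicate 2 they numbered 10. For the ribosomal proteins these numbers were 23 and 18, against 39, and for the processing genes 5 without replicate 1, against 8.

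Tumour against culture in CD71-, most nuclear genes of complex I, of the mitochondrial ribosome and of RNA processing were lower, where 36.8% of all genes were lower and 30.3% higher. Here 30 of 36 complex I genes fell and 1 rose (median -1.40), as did 57 and 6 of 77 ribosomal proteins (median -1.71) and 12 and 0 of 13 processing genes (median -2.04). Of 8 genes of mitochondrial transcription, 4 fell and 0 rose (median -0.97). Polrmt, the RNA polymerase of mitochondria, fell from 5.98 and 13.9 to 1.68 and 0.831 CPM (log2 fold change -2.96, SE 0.52, adjusted p = 0.000188 by edgeR). Tfam, which binds the promoter and packs mitochondrial DNA, fell by 2.94. Other lists went both ways: 2 genes of RNA decay rose and 2 fell (median 0.14), 3 biogenesis regulators rose and 1 fell (median -0.04), and 5 mitophagy genes rose and 5 fell (median 0.04). Supv3l1, a helicase of mitochondrial RNA decay, rose by 2.05. In CD71+, 12 complex I genes fell and 2 rose (median -0.61), as did 30 and 5 ribosomal proteins, where 27.6% of all genes were lower and 30.3% higher. With total counts and with mature neutrophil genes as the scale, 31 and 33 of the complex I genes passed, and 70 and 71 of the ribosomal proteins. DESeq2 called 9 complex I genes and 29 ribosomal proteins, against 14 and 35 by edgeR. Without culture CD71+ replicate 1 the genes that passed fell from 14 to 5 for complex I and from 35 to 14 for the ribosomal proteins, without culture CD71+ replicate 2 to 8 and 20, and without tumour CD71+ replicate 1 to 9 for complex I.

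**Figure D5:**
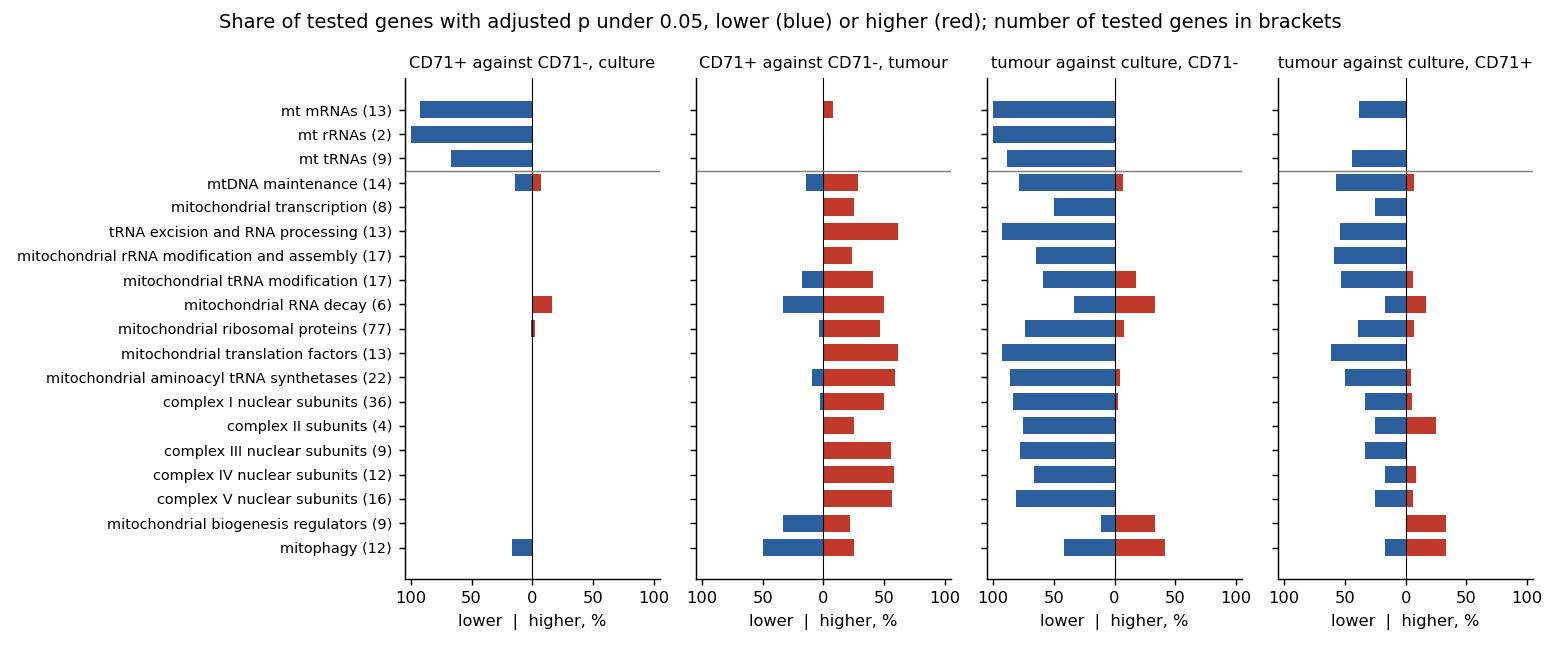
Percent of tested genes with an adjusted p under 0.05, lower (blue, to the left) or higher (red, to the right), in 4 comparisons, for the 3 mitochondrial RNA classes (above the grey line) and the nuclear lists (below it, number tested in brackets). In culture the bars of the mitochondrial classes stand almost alone. In the tumour most nuclear lists reach farther to the right than to the left, while 1 mt mRNA passed. Biogenesis regulators (2 higher, 3 lower) and mitophagy genes (3 higher, 6 lower) reach farther to the left.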

How the data were processed

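Libraries were made from total RNA with Illumina's stranded kit for total RNA, whose Ribo-Zero Plus step removes rRNA, per the labels' protocols. The submitters' processing notes name FastQC, cutadapt, STAR, featureCounts, DESeq2 and mm10. The deposited values were raw counts per gene in 1 table of 55450 genes and 8 libraries, which the authors made from their reads. The sources used here do not give versions, the strand setting or the treatment of reads with several or overlapping targets.

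Gene positions and sequences came from GENCODE M21, where all 55450 identifiers and names were found. Counts were fitted with edgeR 4.0.16 in R 4.3.3 (filterByExpr, TMM, robust quasi-likelihood, 4 group means, residual degrees of freedom 4, 15975 genes). Benjamini-Hochberg adjustment ran over all tested genes in each of 5 comparisons, with a threshold of 0.05. Of the 37 members 24 passed the filter on low counts; 13 tRNAs did not. Copies were sought as exact windows of 50, 75 and 100 bases and with blastn 2.17.0 in GENCODE transcripts. Intervals of shares are Wilson 95% intervals and, like the floor of 3 counts, cover counting error only. DESeq2 1.42.0 was an alternative test.

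Named nuclear genes were up to 3 largest rises and falls per list and comparison taken from those past the threshold with an average of 5 CPM or more and groups without overlap. Cell type markers and levels of the listed genes were read in CPM. Members and lists were chosen with earlier results of these data known. The fit was tested on simulated data before use. Replicate numbers were not used to pair libraries, since the labels do not say that they mark a shared source. Replicates differed by more than sampling noise in every group (chi-square per degree of freedom 12.6 to 69.2). Alternatives covered scaling, filters, the test, a replicate block and leaving out each library.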

Additional observations from a re-analysis of the deposited data

Results flagged for a closer look

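For 16 members the effect of CD71 differed between the tumour and culture by edgeR's test of the difference itself. Each time the log2 fold change of CD71+ against CD71- was higher in the tumour than in culture. The log2 differences of the rRNAs were 4.32 (mt-Rnr1) and 4.37 (mt-Rnr2). Those of the mRNAs were 3.39 (mt-Nd1), 3.12 (mt-Nd2), 3.64 (mt-Co1), 3.32 (mt-Co2), 4.5 (mt-Atp6), 3.27 (mt-Co3), 3.28 (mt-Nd4), 3.68 (mt-Nd5) and 3.93 (mt-Cytb). Those of the tRNAs were 2.99 (mt-Tq), 3.56 (mt-Tw), 3.03 (mt-Tp), 4.14 (mt-Ti) and 7.40 (mt-Tl1). The last 2 values rest on tumour CD71- counts of 3 and 0 for mt-Ti and of 0 and 0 for mt-Tl1, so their size is not a measured fold. mt-Co2, mt-Atp6 and mt-Co3 lie in the stretch copied on chromosome 1.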

How the results depend on the processing

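Over all alternatives, 69 results for members that passed gave 1218 values, of which 1138 stayed past the threshold, 80 missed it and 0 changed sign. Members that passed numbered 1 in the tumour comparison, and 10 with total counts, 9 with total non-mitochondrial counts, 10 with mature neutrophil scaling, 5 without the filter, 6 with the replicate block and 3 with the tumour libraries alone. Tumour against culture in CD71+ gave 9, and 19, 18 and 18 by the first 3 of these, and 11 with the replicate block, 2 of them higher. With the block the counts were 22 in culture (20 without), 18 for the difference (16) and 23 in CD71- (23). Same-numbered libraries correlated at 0.012 in culture and 0.072 in the tumour, and share only a number. Leaving out 1 library gave 0 to 3 members in the tumour, 14 to 22 in culture, 10 to 17 for the difference, 22 to 24 in CD71- and 2 to 11 in CD71+. All genes that passed ranged from 826 to 2880 in culture (2595), 4495 to 7712 in the tumour (6951) and 966 to 3609 for the difference (2470). They numbered 10628 in culture with neutrophil scaling and 3711 for the difference with total non-mitochondrial counts. The cause was not tested.

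Neutrophil scaling moved the median of all genes by 1.10 in culture, 1.01 in the tumour, -1.07 in CD71- and -1.16 in CD71+, total counts by 0.31, 0.56, -0.93 and -0.68 and, for the difference, 0.25, and DESeq2 size factors by -0.20 in the tumour, 0.25 in CD71- and -0.17 for the difference. The share of calls that were higher went from 48.5% in culture and 60.2% in the tumour to 98.5% and 99.7% with neutrophil scaling and to 80.9% and 93.3% with total counts. For CD71- it went from 45.1% to 22.6% and 25.3%, for CD71+ from 52.3% to 20.5% and 29.3%, and for the difference from 69.6% to 87.4% with total counts. DESeq2 size factors gave 47.3% in the tumour and 52.1% for the difference. Among results that did not pass, the tumour value turned to -0.063 for mt-Rnr1, -0.21 for mt-Nd2 and -0.026 and -0.021 for mt-Ta with DESeq2 size factors and test, and to 0.048 for mt-Nd3 with neutrophil scaling. In CD71+, mt-Rnr1 turned to -0.40, -0.41 and -0.92 with total, non-mitochondrial and neutrophil scaling and mt-Rnr2 to -0.088 with the last. Leaving out 1 library gave tumour ranges of -0.53 to 0.95 (mt-Rnr1), -0.12 to 1.29 (mt-Rnr2), -2.06 to 0.29 (mt-Tm), -0.54 to 0.46 (mt-Nd2), -4.81 to 5.06 (mt-Ta), 0.00 to 3.72 (mt-Atp8) and -0.19 to 0.76 (mt-Nd4), differences of -3.11 to 6.79 (mt-Ta) and -1.17 to 3.56 (mt-Nd4l), and CD71+ ranges of -0.063 to 0.655 (mt-Rnr1) and -0.41 to 0.006 (mt-Co1).

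As means per kilobase, rRNA per mRNA was 2.53 in culture CD71-, 0.816 in culture CD71+, 2.997 in tumour CD71- and 1.77 in tumour CD71+, and tRNA per 1000 mRNA was 30.1, 27.6, 23.1 and 19.5. Without mt-Co1, added after seeing the data, these were 0.762, 0.332, 1.46 and 1.24, and 6.05, 7.33, 7.03 and 8.33 per count, so the order of the tRNA ratios turned. The fit with the compared groups alone was not run for the difference, which needs all 4. With 2 libraries a group and tRNA totals of 28 to 154 counts in the tumour, smaller differences were not detectable.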

Other observations

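In the tumour, many nuclear genes that charge and use the mitochondrial tRNAs rose in CD71+. Where 26.2% of all genes rose and 17.3% fell, 13 of 22 mitochondrial tRNA synthetases rose and 2 fell (median log2 fold change 1.32), and of 13 translation factors 8 rose and 0 fell (median 1.66), with 5 that passed without tumour CD71- replicate 1. Of 17 genes of rRNA modification and assembly 4 rose and 0 fell (median 0.50), a share near that of all genes, and 1 passed without tumour CD71- replicate 1. Of 12 mitophagy genes 3 rose and 6 fell, Optn from 728.5 and 684 to 341.8 and 328.2 CPM (log2 fold change -1.08, SE 0.17, adjusted p = 0.000265 by edgeR). Optn was thus lower in CD71+ in both origins, and in CD71- it stood 4.99 higher on the log2 scale in the tumour than in culture. The mature neutrophil genes, summed, were also lower in CD71+ in both origins and highest in tumour CD71-, and their part in the Optn values was not tested.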
